A study of Mus musculus with 20 samples.

Results

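The comparison set the left ventricles of 4 mice fed pitavastatin against those of 4 mice fed rosuvastatin, 8 of the 20 arrays of a study of statin effects on the normal mouse heart. The members were chosen by the statin named in the title of each array, with 1 array per mouse, and their signals played no part in the choice. All were male C57BL/6J mice on standard chow that arrived aged 6 weeks and had 2 weeks to settle before treatment. Pitavastatin calcium was given at 4.5 mg/kg/day and rosuvastatin calcium at 10.9 mg/kg/day, as powdered tablets mixed into the chow, for 4 weeks. The 4 control mice ate the chow alone and are given beside the 2 statins where they help to place a value. The remaining arrays were of 4 mice given pravastatin at 21 mg/kg/day and 4 given atorvastatin at 11.4 mg/kg/day. They entered the fit of all 20 arrays and so its estimate of spread. The doses were not matched, so every difference below is one between these doses of the 2 drugs.

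Statins block HMG-CoA reductase, the enzyme that commits acetyl units to the mevalonate pathway, which feeds cholesterol and coenzyme Q. In liver, a fall in sterols frees the factor SREBP2 to raise the genes of sterol synthesis and uptake. Pitavastatin, built on a quinoline ring, is lipophilic, while rosuvastatin, built on a pyrimidine ring with a sulfonamide, is hydrophilic. Both carry a fluorophenyl group and the dihydroxy acid chain that occupies the enzyme.

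Expression was read as MAS5 signal on a whole-genome mouse array and analysed as log2(signal + 16), called log2 signal here. Differences are pitavastatin minus rosuvastatin on that scale, so a negative difference means lower in pitavastatin hearts. The brighter 22518 of 45037 probe sets were tested with limma in a fit of all 20 arrays, and a probe set was called at a Benjamini-Hochberg adjusted p under 0.05. For gene groups, each gene was represented by its brightest tested probe set, which gave 11230 genes with a median difference of 0.01. At the median, the 95% interval of a difference reached 0.36 to either side, and the number of arrays limits this precision. Among the 11230 genes limma called 0, with 826 lower and 443 higher in pitavastatin hearts at an unadjusted p under 0.05. Genes of the ventricle were bright in both groups: the light chain Myl2 had a log2 signal between 15.42 and 15.56 in pitavastatin hearts and between 14.5 and 15.84 in rosuvastatin hearts.

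The rosuvastatin arrays differed among themselves more than the pitavastatin arrays did. The median signal was 91.4, 92.0, 80.2 and 103.8 in pitavastatin hearts 1 to 4, against 71.8, 83.7, 41.7 and 85.4 in rosuvastatin hearts 1 to 4. Rosuvastatin 1 and rosuvastatin 3 thus lay below every pitavastatin array and are called the dim rosuvastatin arrays. The log2 median was 6.52 ± 0.15 in pitavastatin hearts, 6.09 ± 0.48 in rosuvastatin hearts and 6.56 ± 0.26 in control hearts (SD, n = 4 each), and pitavastatin and rosuvastatin hearts did not differ past the threshold (two-sided exact permutation test, p = 0.0857, adjusted over 4 array measures 0.171). The 18S ribosomal RNA control had a log2 signal of 11.5 ± 0.17 in pitavastatin hearts and 11.9 ± 0.36 in rosuvastatin hearts (exact permutation p = 0.0571, adjusted 0.171), and the ratios of 3-prime to 5-prime signal of Gapdh and beta-actin differed by 0.01 and -0.14 (exact p = 0.886 and 0.343).

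The difference between the groups followed brightness, as seen when the tested genes were ordered by mean signal and cut into 10 sets of 1123. In set 1, the dimmest, the median difference was 0.20, with 72.7% of genes higher in pitavastatin hearts. It was -0.01 in set 5 and -0.08 in set 8, where 32.6% were higher. Among the 500 brightest genes, many of them sarcomere and mitochondrial genes, it was 0.12, with 78.4% higher. Quantile normalization left medians between -0.08 and -0.003 in the 10 sets, and without the dim rosuvastatin arrays the median of the 500 brightest genes was -0.07. The medians of the larger gene groups under these settings are in the plot of gene lists, and are given below where they matter to a direction or size. Centring each array on its median moved the median of all tested genes to -0.34, so a direction under that setting is read relative to this shift.

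**Figure D1:**
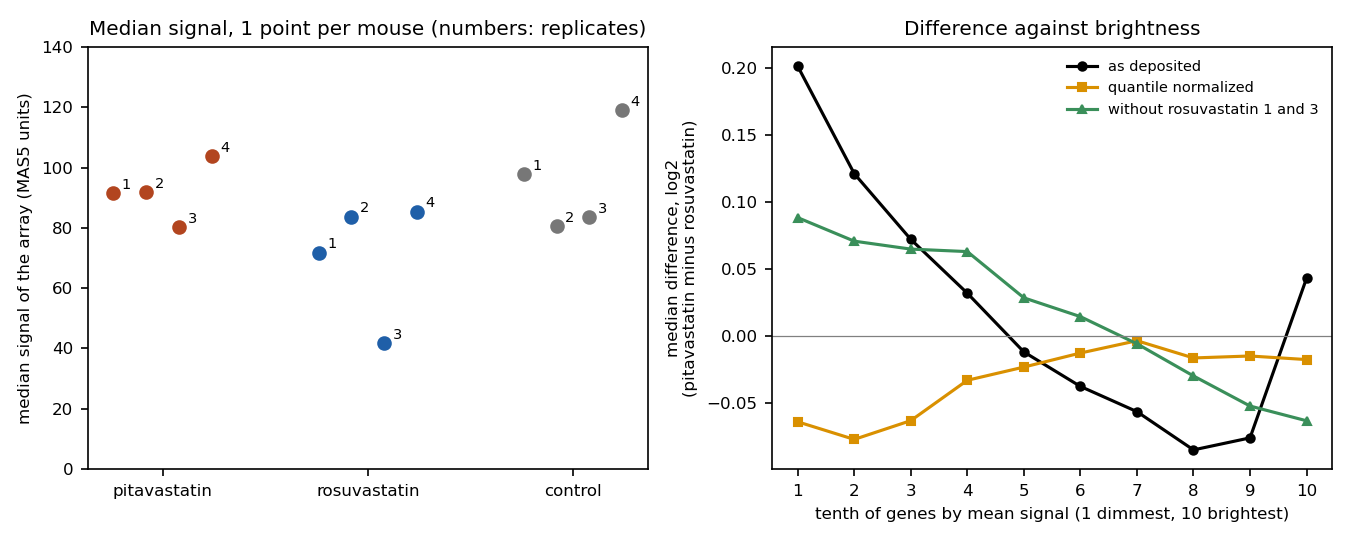
The left panel plots the median MAS5 signal of each array by group, numbered by replicate. The right panel plots the median log2 difference, pitavastatin minus rosuvastatin, in 10 sets of tested genes ordered by mean signal, as deposited, after quantile normalization and without rosuvastatin 1 and 3. Rosuvastatin 3 sits lowest at 41.7, and the deposited values run from 0.20 in set 1, the dimmest, to -0.08 in set 8.

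Myl4 and Myl7, light chains of atrial muscle, marked 1 array in each group. Myl7 had a signal of 11.7, 1239.5, 27.7 and 20.8 in pitavastatin hearts, against 57.5, 9.5, 1259.2 and 3.7 in rosuvastatin hearts. Pitavastatin 2 and rosuvastatin 3 therefore stood apart in these light chains, while control 1 had 296. Other atrial and conduction genes were mixed in pitavastatin 2 and rosuvastatin 3. Nppa was the highest of each group there, at 12102.7 and 8857.4. Tbx5 was the lowest of each group, at 172.9 and 375.2, and the dim Sln was not raised, at 65.7 and 15.4. Of the 11 listed genes of atrium and conduction, 10 had a probe set and 5 were bright enough to be tested. Their summed signal ran from 8898 to 18210 in pitavastatin hearts and from 8696 to 14999 in rosuvastatin hearts, and Bmp10, an atrial growth factor, stayed at 10.4 or below in both. A limma fit that left out these 2 arrays had 0 calls, and 541 probe sets were higher and 801 lower in pitavastatin hearts before adjustment (p under 0.05).

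Limma called 1 of 22518 probe sets, 0.00444% of those tested, and it lies in Med1. Med1 encodes the Mediator subunit that binds nuclear receptors and couples them to RNA polymerase. Its called probe set had log2 signals of 9.61, 9.59, 9.69 and 9.65 in pitavastatin hearts, against 10.61, 10.31, 10.69 and 10.4 in rosuvastatin hearts. The groups did not overlap, and 3 of the 4 control hearts, at 9.5, 9.52 and 9.6, lay with pitavastatin, while control 1 was at 10.18. In this probe set Med1 was lower by 0.87 on the log2 scale in pitavastatin than in rosuvastatin hearts (SE 0.13, 95% interval -1.14 to -0.60, limma adjusted p = 0.0446), a fold of 0.547. The rosuvastatin mean lay 0.81 above control and the pitavastatin mean at -0.06 from it. Without the dim rosuvastatin arrays the difference was -0.72 and the call ended (limma adjusted p = 0.992). That fit kept 2 rosuvastatin arrays, and 0.992 was the smallest adjusted p of any probe set in it. When single arrays were left out, the call held in 5 of 20 fits. Its limma adjusted p ran from 0.000752 without control 1 to 0.212 without pitavastatin 4. The call ended without any 1 pitavastatin array and without rosuvastatin 1, 3 or 4.

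The other Med1 probe sets did not share this difference. Of 7 on the array, 5 were tested, and the brightest had 12.3, 12.41, 12.47 and 12.49 in pitavastatin hearts, against 12.42, 12.2, 12.48 and 12.52 in rosuvastatin hearts. Here the groups overlap, with a difference of 0.01 (95% interval -0.17 to 0.19). Another probe set, much dimmer, lay the other way, at 7.79, 7.82, 7.65 and 7.95 in pitavastatin hearts against 7.19, 7.19, 5.52 and 7.9 in rosuvastatin hearts, a difference of 0.85 (SE 0.42) that did not pass. The transcripts that each probe set reads were not analysed here.

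**Figure D2:**
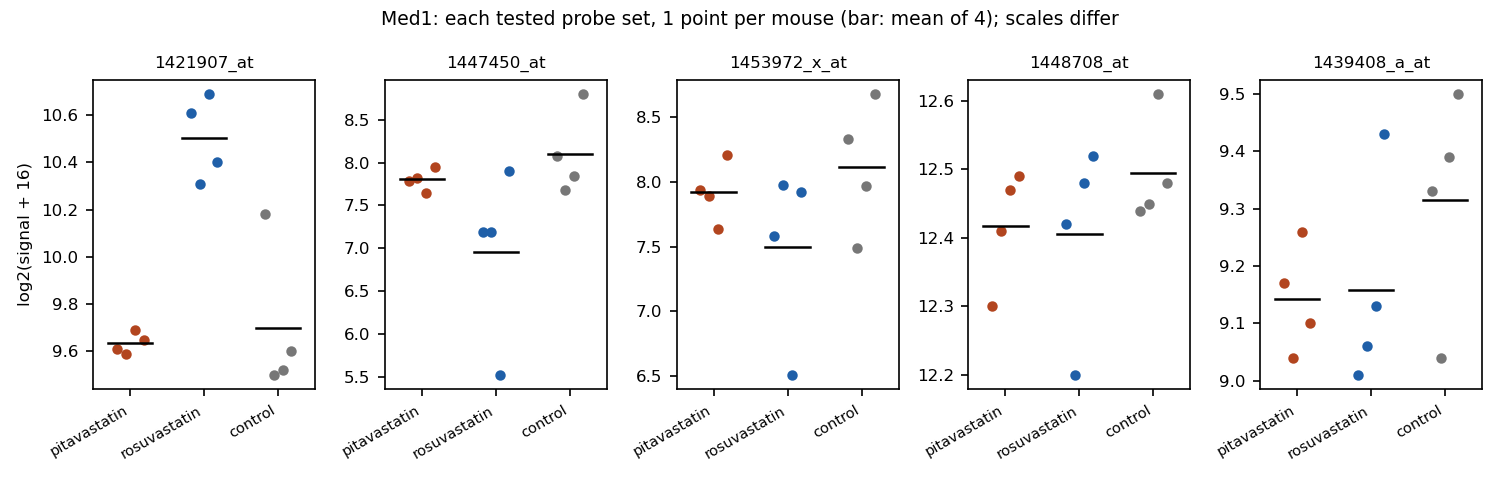
Log2(signal + 16) of the 5 tested Med1 probe sets in each of 4 pitavastatin, 4 rosuvastatin and 4 control hearts, with 1 point per mouse and a bar at the group mean; the vertical scales differ. The groups part in the called probe set, where pitavastatin hearts sit between 9.59 and 9.69 and rosuvastatin hearts between 10.31 and 10.69, and overlap in the brightest, at 12.2 to 12.52.

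Around Med1, the 29 measured Mediator genes lay on both sides, 13 higher and 16 lower in pitavastatin hearts, with a median of -0.01. None was called. At an unadjusted p under 0.05, 4 were lower and 0 higher, against 7.36% of all genes lower and 3.94% higher. Cdk8, the kinase of the Mediator's regulatory module, had 9.46, 9.47, 9.66 and 9.55 in pitavastatin hearts, against 10.27, 9.8, 10.38 and 9.85 in rosuvastatin hearts. There was no overlap, and the difference of -0.54 (SE 0.12, limma adjusted p = 0.195) shrank to -0.29 without the dim rosuvastatin arrays. Med13l, of the same module and singled out after its values were seen, differed by -0.53 (SE 0.13) in its brightest probe set and by 0.005 in the next. Med27, of the tail of the complex, lay highest, with a difference of 0.48 (SE 0.26), or 0.72 without rosuvastatin 3, and overlapping groups. The core subunit Med4 differed by -0.10.

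When probe sets were ranked by p, the top 50 held 48 that were lower and 2 that were higher in pitavastatin hearts, and besides Med1 none passed. Counted over all 22518 tested probe sets, 1332 were lower and 1312 higher at an unadjusted p under 0.05 (5.92% and 5.83%). Higher ones made up 49.6% of these, but 23.7% after centring on the array median. Many of the 48 had a mean log2 signal within brightness sets 6 to 9, which span 9.20 to 12.24. There, lower genes outnumbered higher ones at this p, by 8.90% to 2.49% in set 6 and 17.8% to 1.87% in set 9. The part of brightness in the split of the top 50 was not tested. The groups did not overlap in 902 probe sets lower in pitavastatin hearts and 853 higher (4.01% and 3.79%). All of the top 50, chosen by p, had groups that did not overlap. In all 48 lower ones the rosuvastatin mean lay above control, with a median of 0.34 above, while the pitavastatin mean lay within 0.25 of control in 29 and had a median of -0.18. Both of these differences share the control hearts and each is given only to place the levels. The 48 had a median difference of -0.53, which was -0.50 after quantile normalization and -0.46 without the dim rosuvastatin arrays. All 48 stayed below 0 under both, but with groups that do not overlap, leaving out arrays could not have turned a sign.

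Among the lower probe sets with 1 gene symbol, the farthest below 0 after Hspa1b and Med1 lies in Eif4e2, which encodes a cap-binding protein that represses translation. It had 9.23, 9.01, 9.42 and 8.89 in pitavastatin hearts, against 9.99, 9.6, 10.38 and 9.68 in rosuvastatin hearts, a difference of -0.78 (SE 0.16, limma adjusted p = 0.176). Rosuvastatin 3 was the highest of the 8, the difference was -0.51 without the dim rosuvastatin arrays, and the brightest Eif4e2 probe set differed by -0.03. Tbc1d9, of a family of Rab GTPase-activating proteins, had 7.61, 7.64, 7.05 and 7.17 in pitavastatin hearts, against 8.24, 8.01, 8.27 and 7.98 in rosuvastatin hearts. Here the controls, between 7.74 and 8.12, lay nearer to rosuvastatin, and the difference was -0.76 (SE 0.16, limma adjusted p = 0.171).

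Rhobtb1, an adaptor of a cullin ubiquitin ligase, had 11.69, 11.5, 11.5 and 11.7 in pitavastatin hearts, against 12.46, 12.43, 12.02 and 12.37 in rosuvastatin hearts. Its difference of -0.72 (SE 0.14, limma adjusted p = 0.127) was -0.80 without the dim rosuvastatin arrays, and in this gene rosuvastatin 3 was the lowest of its group. Fam160b2, Lonrf1, a ring finger protein, and Zfp568, a zinc finger repressor of imprinted genes in the mouse embryo, differed by -0.69, -0.71 and -0.69, with limma adjusted p of 0.114, 0.195 and 0.177. In all 3 the highest pitavastatin heart was below the lowest rosuvastatin heart, and Lonrf1 differed by -0.44 without the dim rosuvastatin arrays.

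On the higher side stood Asb4 and Wdr46. Asb4, a substrate receptor of a cullin ubiquitin ligase that is expressed in vascular cells, had 8.32, 8.19, 8.33 and 8.49 in pitavastatin hearts, against 7.52, 7.74, 7.2 and 7.75 in rosuvastatin hearts. The controls, between 8.09 and 8.35, lay with pitavastatin, and the difference was 0.78 (SE 0.17, limma adjusted p = 0.176). The brighter of its 2 probe sets differed by 0.45 (SE 0.17). Wdr46, a nucleolar scaffold protein, had 8.36, 8.63, 8.18 and 8.38 in pitavastatin hearts, against 7.49, 7.89, 7.61 and 7.79 in rosuvastatin hearts. Its difference was 0.70 (SE 0.16, limma adjusted p = 0.195), and its other probe set differed by 0.61 (SE 0.30).

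**Figure D3:**
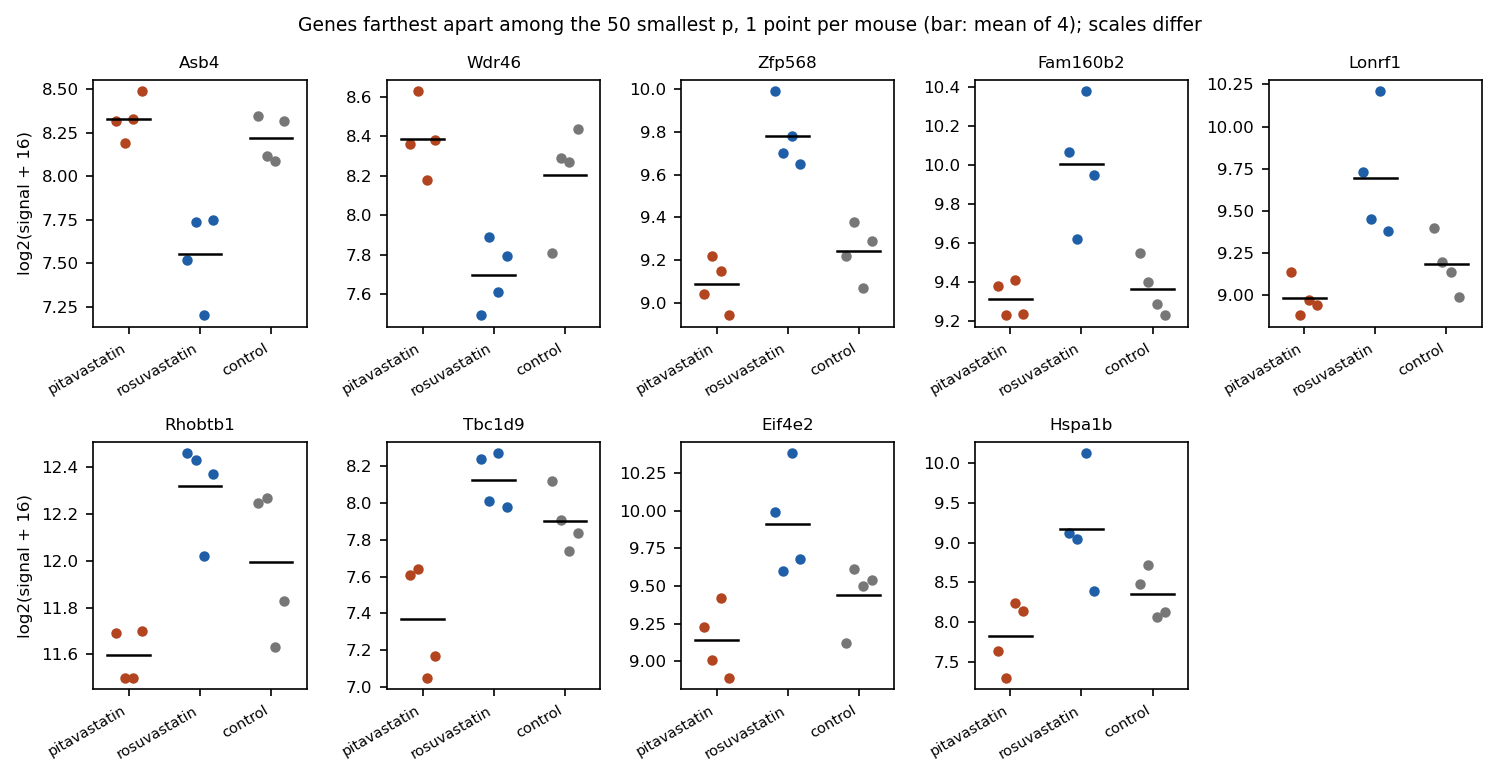
Log2(signal + 16) of the genes farthest apart in either direction among the 50 smallest p, Med1 excepted, in 4 pitavastatin, 4 rosuvastatin and 4 control hearts; points are mice, bars are group means, and the vertical scales differ. Pitavastatin hearts lie above rosuvastatin hearts in Asb4 and Wdr46 and below them in the other 7 genes, with no overlap between these 2 groups.

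Many of these genes differed in 1 probe set more than in the rest. Of the 45 genes with a lower probe set among the 50, 31 had at least 1 other tested probe set, and 49 of those 73 others lay below 0, 19 of them at an unadjusted p under 0.05. The median difference was -0.52 for the first probe set, chosen for its small p, and -0.19 for the brightest of the others. Examples singled out after their values were seen were Psmd11, a proteasome lid subunit, at -0.64 and -0.08, and Smad4, the shared partner of TGF-beta and BMP signals, at -0.48 and -0.19.

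The heat shock chaperones held the widest difference among the named genes, in Hspa1b, an inducible Hsp70. Cells raise these genes when heat shock factor HSF1 binds paired GAA repeats in their promoters. For the genes shown here the 250 bases before the start were searched for GAANNTTC and TTCNNGAA, each of which reads the same on both strands; capitals mark the matches. The sequences are from RefSeq, build GRCm38.p6, and show Hspa1b, Dnaja1 and Dnajb1, which lay lowest of the group, and Hspe1, which was not lower.
Hspa1b, chr17:34959239-34959488, minus strand: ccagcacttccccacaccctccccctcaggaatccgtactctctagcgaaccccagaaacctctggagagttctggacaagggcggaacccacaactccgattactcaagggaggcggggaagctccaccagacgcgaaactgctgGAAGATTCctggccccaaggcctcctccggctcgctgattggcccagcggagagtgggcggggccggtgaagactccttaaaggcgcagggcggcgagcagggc
Dnaja1, chr4:40722218-40722467, plus strand: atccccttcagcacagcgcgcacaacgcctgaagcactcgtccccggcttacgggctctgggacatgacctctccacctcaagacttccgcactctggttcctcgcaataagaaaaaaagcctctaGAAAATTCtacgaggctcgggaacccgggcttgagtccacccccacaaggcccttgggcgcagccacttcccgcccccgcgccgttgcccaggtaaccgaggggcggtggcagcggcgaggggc
Dnajb1, chr8:83607925-83608174, plus strand: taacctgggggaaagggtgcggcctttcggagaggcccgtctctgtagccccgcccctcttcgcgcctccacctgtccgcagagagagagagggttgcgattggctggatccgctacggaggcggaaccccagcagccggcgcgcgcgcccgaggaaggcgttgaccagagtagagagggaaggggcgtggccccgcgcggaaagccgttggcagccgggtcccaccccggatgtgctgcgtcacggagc
Hspe1, chr1:55087898-55088147, plus strand: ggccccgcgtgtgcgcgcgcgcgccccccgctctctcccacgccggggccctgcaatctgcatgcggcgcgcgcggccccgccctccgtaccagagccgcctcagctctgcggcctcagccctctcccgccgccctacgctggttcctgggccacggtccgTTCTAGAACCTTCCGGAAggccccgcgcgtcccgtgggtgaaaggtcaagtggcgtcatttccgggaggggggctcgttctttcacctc

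In these windows the match begins 104 bases before the start in Hspa1b and 124 in the Dnaja1 window shown, which is the 1 of its 3 windows with a match, neither window of Dnajb1 holds one, and 3 overlapping matches begin 89, 84 and 79 bases before the start of Hspe1. Of the 19 measured chaperones, 15 had a window and 8 had a match in at least 1 window, while 14.5% of the 27025 genes searched have one and 12.8% of their 32851 windows hold one. Among the 4 chaperones lower at an unadjusted p under 0.05, 3 had a match, as did 5 of the 11 others with a window. Hspe1 and Hspd1 are both among these 5. Their windows overlap on opposite strands, so the same 3 matches count for both genes.

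Hspa1b had log2 signals of 7.63, 7.3, 8.24 and 8.14 in pitavastatin hearts, against 9.12, 9.05, 10.12 and 8.39 in rosuvastatin hearts and 8.48, 8.72, 8.07 and 8.13 in control hearts. Pitavastatin hearts lay below rosuvastatin hearts without overlap, with rosuvastatin 3 highest, and control hearts lay across the pitavastatin and the lower rosuvastatin values. The difference was -1.34 (SE 0.31, 95% interval -1.98 to -0.70) and did not pass over all probe sets (limma adjusted p = 0.195). It was -0.89 without the dim rosuvastatin arrays and -0.85 without the arrays high in atrial light chains. The other 2 Hspa1b probe sets and the 1 of Hspa1a, a near-identical copy whose transcripts these probes may not separate, were too dim to be tested.

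Co-chaperones that hand clients to Hsp70 lay on the same side; they were singled out after their values were seen. Dnaja1 had 10.51, 10.48, 10.49 and 10.52 in pitavastatin hearts, against 11.1, 11.07, 11.43 and 10.79 in rosuvastatin hearts. The spread within pitavastatin hearts was small, and all 3 Dnaja1 probe sets were lower, by -0.60 (SE 0.14, limma adjusted p = 0.195), -0.53 and -0.43. Dnajb1 had 9.72, 9.6, 9.54 and 9.71 in pitavastatin hearts, against 10.54, 10.37, 10.11 and 10.14 in rosuvastatin hearts, a difference of -0.65 (SE 0.16, limma adjusted p = 0.207) that was -0.61 without the dim rosuvastatin arrays. Its dimmer probe set differed by -0.06. Dnajb4 differed by -0.25 (SE 0.11), again without overlap.

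The rest of the chaperone list did not share this. Of its 19 measured genes 10 were higher and 9 lower, with a median of 0.02 that was -0.04 after quantile normalization. Lower at an unadjusted p under 0.05 were 4, and higher 0, against 7.36% and 3.94% of all genes. Groups did not overlap in those same 4, against 5% of all genes lower and 2.77% higher. Hspa8, the constitutive Hsp70, had 15, 15.16, 14.86 and 15.02 in pitavastatin hearts, against 14.61, 15.29, 14.32 and 14.89 in rosuvastatin hearts, which overlap. Hspb6, a small heat shock protein of muscle, lay highest, with a difference of 0.32 (SE 0.20) that was -0.01 without the dim rosuvastatin arrays.

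**Figure D4:**
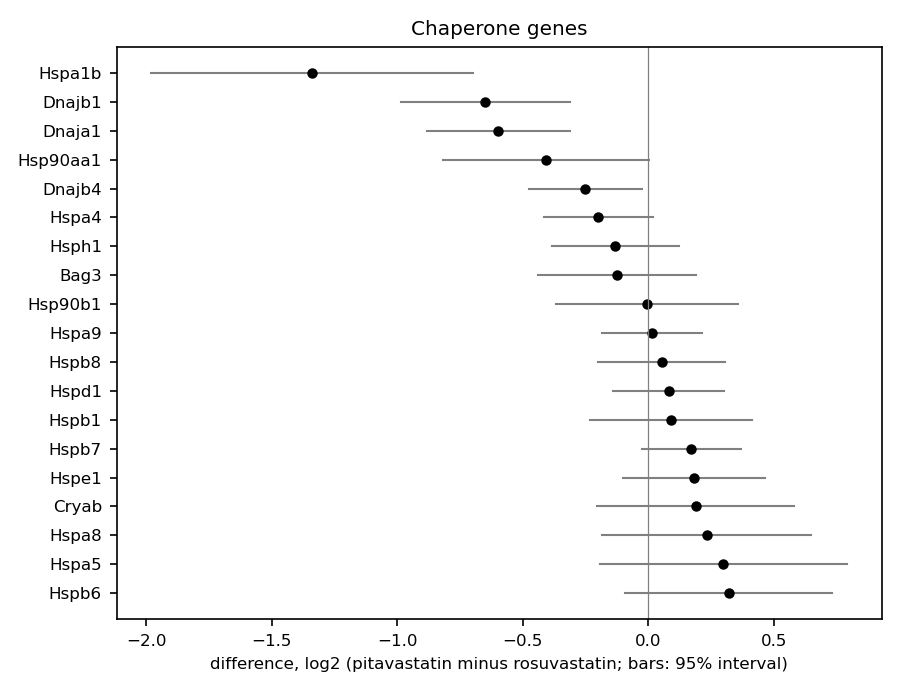
Log2 difference, pitavastatin minus rosuvastatin, of the 19 measured chaperone genes with its 95% interval from limma. Hspa1b at -1.34, Dnajb1 at -0.65, Dnaja1 at -0.60 and Dnajb4 at -0.25 lie below 0 with their intervals, and the other 15 intervals span 0.

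Genes of nuclear RNA processing were mostly lower in pitavastatin hearts. Of 29 measured splicing factors 25 were lower and 4 higher, where 48.9% and 51.1% of all tested genes lay on these sides, and the median was -0.14. At an unadjusted p under 0.05, 7 were lower and 1 higher, against 7.36% and 3.94% of all genes, and none was called. The list median was -0.15 after quantile normalization and -0.13 without the dim rosuvastatin arrays. Centring shifts all genes of an array alike, so the -0.15 relative to all genes after it repeats the deposited difference and is no further check. The mean log2 signal of the list lay between 11.12 and 11.23 in pitavastatin hearts and between 11.24 and 11.42 in rosuvastatin hearts, at the border of brightness sets 8 and 9, in which 14.8% and 17.8% of all genes were lower at an unadjusted p under 0.05. The part of brightness in this difference was not tested.

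Srsf1, a founding SR protein that selects exons, had 12.44, 12.4, 12.62 and 12.41 in pitavastatin hearts, against 12.77, 12.83, 13.01 and 12.75 in rosuvastatin hearts. Rosuvastatin hearts were all above pitavastatin hearts, with a difference of -0.37 (SE 0.10, limma adjusted p = 0.256), and 5 of its 6 tested probe sets were lower. Tra2a, which works with SR proteins, lay lowest of the list at -0.49 (SE 0.15), and Srsf2 differed by -0.19 (SE 0.16). Hnrnpl, which binds CA repeats and represses exons, went the other way, with 8.56, 8.02, 8.35 and 8.44 in pitavastatin hearts against 7.76, 7.78, 7.64 and 7.5 in rosuvastatin hearts. Its difference was 0.67 (SE 0.16, limma adjusted p = 0.195), and 0.70 without the dim rosuvastatin arrays.

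Among 10 measured nuclear long noncoding RNAs, 6 were lower and 4 higher, with a median of -0.04. Malat1, a transcript of nuclear speckles, had 11.88, 11.12, 11.67 and 11.2 in its brightest probe set in pitavastatin hearts, against 12.17, 11.81, 12.25 and 11.87 in rosuvastatin hearts. These overlap slightly, at a difference of -0.56 (SE 0.18), and the other 6 Malat1 probe sets differed by between -0.06 and 0.19. Tug1, singled out after its values were seen, differed by -0.64, -0.41 and 0.11 in its 3 probe sets, and the paraspeckle transcript Neat1 by -0.04. Kcnq1ot1, an imprinted silencing RNA, had 9.6, 9.49, 9.39 and 10.06 in pitavastatin hearts, against 8.88, 9.55, 7.12 and 9.65 in rosuvastatin hearts. Rosuvastatin 3 set its difference of 0.84 (SE 0.46), which was 0.28 without that array.

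The genes of cholesterol synthesis, the pathway that both drugs block, did not separate the groups. Of 16 measured, 9 were higher and 7 lower in pitavastatin hearts, with a median of 0.04. Each direction had 1 at an unadjusted p under 0.05, against 3.94% of all genes higher and 7.36% lower. The median was 0.18 without the dim rosuvastatin arrays and 0.17 without rosuvastatin 3 alone. Hmgcs1, the synthase just before the reductase, had 12.94, 12.78, 12.84 and 12.81 in pitavastatin hearts, against 12.93, 12.97, 12.87 and 12.98 in rosuvastatin hearts. Its difference was -0.09 in this probe set, its brightest, with a 95% interval of -0.32 to 0.13. All 4 tested Hmgcs1 probe sets were lower, the farthest by -0.18 (SE 0.11).

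Idi1, the isomerase that supplies the activated isoprene unit, had 9.14, 9.12, 8.98 and 9.4 in pitavastatin hearts, against 8.86, 9.07, 8.47 and 9.03 in rosuvastatin hearts and between 9.07 and 9.24 in controls. Its difference of 0.31 (SE 0.13, limma adjusted p = 0.42) was 0.11 without the dim rosuvastatin arrays, and its second probe set differed by -0.07. Sqle, which opens the sterol branch, differed by 0.34 (95% interval -0.15 to 0.83), and Mvk, the mevalonate kinase, by -0.005. Mvd, the decarboxylase that follows, lay highest at 0.40 (SE 0.21) without overlap, and Hsd17b7, a late sterol reductase, lowest at -0.46 (SE 0.21).

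Of 15 measured genes of sterol sensing and uptake 7 were higher and 8 lower, with a median of -0.02. Srebf1, the SREBP that mainly drives fatty acid synthesis, had 8.8, 8.92, 8.95 and 9.14 in pitavastatin hearts, against 8.42, 8.73, 8.71 and 8.62 in rosuvastatin hearts. These do not overlap, at a difference of 0.33 (SE 0.12, limma adjusted p = 0.404), while Srebf2, the sterol SREBP, differed by 0.19 (SE 0.19). Abcg1, which exports cholesterol to HDL, lay lowest at -0.36 (SE 0.18), or -0.12 without the dim rosuvastatin arrays.

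Of 11 coenzyme Q genes 8 were higher, with a median of 0.10. Coq10b, a coenzyme Q binding protein of mitochondria, went the other way, with 12.0, 12.06, 12.16 and 12.46 in pitavastatin hearts against 12.57, 13.03, 12.5 and 13.06 in rosuvastatin hearts. All pitavastatin hearts lay below the rosuvastatin hearts, at a difference of -0.62 (SE 0.18, limma adjusted p = 0.316) and of -0.87 without the dim rosuvastatin arrays. Of 10 measured genes that transport or metabolise statins 4 were higher and 6 lower. Abcg2, an efflux pump that carries rosuvastatin in humans, had 10.14, 10.24, 10.1 and 10.11 in pitavastatin hearts, against 10.38, 10.52, 10.75 and 10.47 in rosuvastatin hearts. It differed by -0.38 (SE 0.16, limma adjusted p = 0.42) without overlap, while the uptake carrier Slco2b1 differed by -0.10 (SE 0.15).

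Genes of contraction and energy supply were higher in pitavastatin hearts as deposited, and this did not hold without the dim rosuvastatin arrays. All 33 measured complex I genes were higher, as were 36 of 37 of complexes II to V, 18 of 20 sarcomere genes, 17 of 18 genes of the tricarboxylic acid cycle and 15 of 18 of fatty acid oxidation, with medians of 0.22, 0.24, 0.25, 0.20 and 0.19. None of these genes was called. After quantile normalization the same medians were 0.04, 0.02, 0.04, 0.04 and 0.05. Without the dim rosuvastatin arrays they were -0.04, -0.06, -0.06, 0.02 and -0.02, and 11 of 33 complex I and 6 of 20 sarcomere genes were then higher. Without rosuvastatin 3 alone the first 3 were 0.10, 0.10 and 0.11.

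The per-array means show this. The mean log2 signal of the complex I genes lay between 14.26 and 14.39 in the 4 pitavastatin hearts and between 13.83 and 14.5 in the 4 rosuvastatin hearts, with rosuvastatin 3 at the low end. The sarcomere mean ran from 14.16 to 14.3 in pitavastatin hearts, within the range of 13.69 to 14.41 in rosuvastatin hearts. Myh6, the adult heavy chain of mouse ventricle, had 15.16, 15.35, 15.11 and 15.28 in pitavastatin hearts, against 14.72, 15.58, 14.39 and 15.1 in rosuvastatin hearts. Rosuvastatin 2 was thus above every pitavastatin heart, rosuvastatin 1 and 3 were below them all, and rosuvastatin 4 was just under the lowest. The marker list of cardiomyocytes, all 16 genes of which were measured, moved likewise, with a summed signal from 438930 to 505898 in pitavastatin hearts and from 277714 to 575055 in rosuvastatin hearts. The 500 brightest genes, many of them sarcomere and mitochondrial genes, moved likewise. Their median difference was 0.12 as deposited and -0.07 without the dim rosuvastatin arrays. The part of array brightness in the cardiomyocyte sums was not tested, so these sums are not read as cell number or RNA content. In bulk tissue, fewer cells of a type and less RNA per cell also cannot be told apart.

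Single genes of these groups differed in how much they moved with the dim arrays. Idh2, the mitochondrial isocitrate dehydrogenase that makes NADPH, had 14.23, 14.22, 14.14 and 14.15 in pitavastatin hearts, against 13.84, 14.02, 13.71 and 13.77 in rosuvastatin hearts. The difference of 0.35 (SE 0.13, limma adjusted p = 0.396) was 0.29 without the dim rosuvastatin arrays. Ndufs3, a core subunit of complex I, differed by 0.32 (SE 0.15) and by 0.10 without them, and the small complex I subunit Ndufa6, the lowest of its list, by 0.06. Among 15 genes of glycolysis and glucose uptake, 12 were higher, while Pgam1, a phosphoglycerate mutase, had 11.58, 11.77, 11.98 and 11.88 in pitavastatin hearts, against 12.3, 12.19, 12.46 and 12.24 in rosuvastatin hearts. Its difference was -0.50 (SE 0.13, limma adjusted p = 0.239) and -0.41 without the dim rosuvastatin arrays.

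Ribosomal protein genes were higher in pitavastatin hearts, also without the dim rosuvastatin arrays. Of 26 measured cytosolic ribosomal proteins 25 were higher, against 51.1% of all genes, with a median of 0.19. This median was 0.09 both after quantile normalization and without the dim rosuvastatin arrays. The 0.19 relative to all genes after centring repeats the deposited difference and is no further check. Of the 26, 5 were higher at an unadjusted p under 0.05 and 0 lower, where 3.94% of all genes were higher and 7.36% lower, and none was called. The mean log2 signal of the list lay between 13.24 and 13.36 in pitavastatin hearts and between 13.01 and 13.3 in rosuvastatin hearts. Among the 500 brightest genes, from 13.17 up, 78.4% were higher, with a median of 0.12 that was -0.07 without the dim rosuvastatin arrays. The part of brightness in this difference was not tested. Rplp0, of the ribosomal stalk, had 13.62, 13.85, 13.73 and 13.73 in pitavastatin hearts, against 13.09, 13.53, 13.27 and 13.24 in rosuvastatin hearts. Its difference was 0.45 (SE 0.18, limma adjusted p = 0.412), and 0.35 without the dim rosuvastatin arrays. Rps25 was the 1 lower gene, at -0.16 (SE 0.11).

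Of 32 mitochondrial ribosomal proteins 27 were higher, with a median of 0.12 that was 0.15 after quantile normalization and 0.16 without the dim rosuvastatin arrays. Mrps10, of the small mitochondrial subunit, had 10.62, 10.61, 10.58 and 10.49 in pitavastatin hearts, against 10.14, 10.26, 10.41 and 10.23 in rosuvastatin hearts, a difference of 0.31 (SE 0.10, limma adjusted p = 0.366). Of 31 proteasome genes 24 were higher, with a median of 0.08. None reached an unadjusted p under 0.05, against 3.94% of all genes higher and 7.36% lower.

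**Figure D5:**
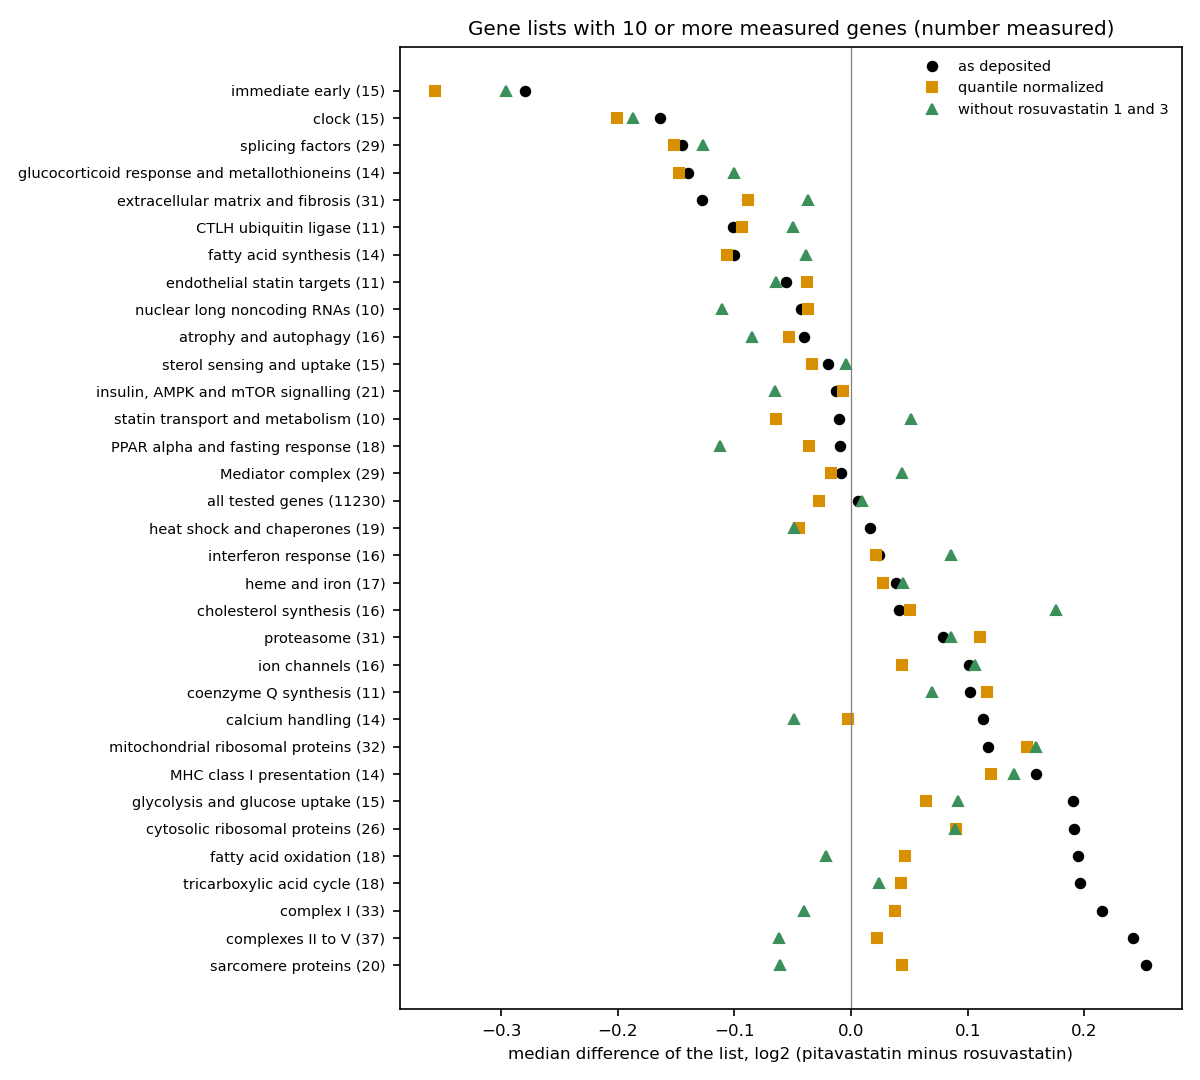
Median log2 difference, pitavastatin minus rosuvastatin, of gene lists with 10 or more measured genes, other than cell type markers, as deposited, after quantile normalization and without rosuvastatin 1 and 3. Sarcomere and respiratory chain lists lie near 0.2 as deposited and near 0 in the other settings, while the immediate early, clock and splicing lists lie below 0 in all 3.

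Antigen presentation genes were higher in pitavastatin hearts by small amounts. Of 14 measured genes of MHC class I presentation 13 were higher, with a median of 0.16, and 0.14 without the dim rosuvastatin arrays. All 6 measured class II genes were higher, with a median of 0.22, and 0.17 without those arrays, and none was called. H2-Eb1, a class II beta chain, had 10.67, 10.67, 10.63 and 10.42 in pitavastatin hearts, against 10.39, 10.18, 10.08 and 10.27 in rosuvastatin hearts. The groups did not overlap, at a difference of 0.37 (SE 0.21, limma adjusted p = 0.449), but the 4 control hearts spanned 9.73 to 10.98. Psmb9, an immunoproteasome subunit, differed by 0.39 (SE 0.18), and the class I heavy chains H2-K1 and H2-D1 by 0.09 and 0.08.

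The 15 macrophage markers, whose median difference was 0.004, held genes far from 0 on both sides. Timd4, a phosphatidylserine receptor of resident macrophages, had 7.75, 8.2, 7.92 and 8.07 in pitavastatin hearts, against 7.19, 7.12, 6.82 and 7.67 in rosuvastatin hearts and between 7.8 and 8.66 in controls. Its difference was 0.78 (SE 0.28, limma adjusted p = 0.39) and 0.59 without the dim rosuvastatin arrays. Cd163, the haemoglobin scavenger receptor, had 8.63, 8.4, 8.59 and 8.59 in pitavastatin hearts, against 9.31, 8.56, 9.61 and 9.19 in rosuvastatin hearts, a difference of -0.61 (SE 0.19, limma adjusted p = 0.324) and -0.32 without them. At an unadjusted p under 0.05, 3 markers were higher and 1 lower, against 3.94% and 7.36% of all genes. The summed signal of the 15 ran from 23952 to 29474 in pitavastatin hearts and from 25560 to 28980 in rosuvastatin hearts.

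Immediate early genes, which cells raise within minutes of a stimulus, were lower in pitavastatin hearts. Of 15 measured 14 were lower, against 48.9% of all genes, with a median of -0.28. At an unadjusted p under 0.05, 4 were lower and 0 higher, against 7.36% and 3.94% of all genes. The median was -0.36 after quantile normalization, -0.20 without rosuvastatin 3 and -0.30 without both dim arrays, though only 10 of 15 were lower in the last. Jun, a subunit of AP-1, had 10.94, 10.8, 10.74 and 11.04 in pitavastatin hearts, against 11.44, 11.31, 11.15 and 11.34 in rosuvastatin hearts, a difference of -0.43 (SE 0.18, limma adjusted p = 0.42). Egr2, a zinc finger factor, lay lowest at -0.57 (SE 0.25), or -0.30 without the dim rosuvastatin arrays. Fos, the partner of Jun, ranged from 7.01 to 8.45 in pitavastatin hearts and from 7.22 to 9.05 in rosuvastatin hearts, and its difference of -0.33 (SE 0.39) was 0.03 without rosuvastatin 3. Ccn1, a matricellular protein, differed by 0.12.

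Of 15 clock genes 11 were lower, with a median of -0.16, which was -0.20 after quantile normalization and -0.19 without the dim rosuvastatin arrays. At an unadjusted p under 0.05, 4 were lower, against 7.36% of all genes. Dbp, an output factor with a strong daily rhythm, had 10.15, 10.88, 11.37 and 11.58 in pitavastatin hearts, against 10.98, 12.3, 10.71 and 11.82 in rosuvastatin hearts. These spreads overlap widely, at a difference of -0.46 (SE 0.34), which was -1.07 without the dim rosuvastatin arrays and -0.70 without rosuvastatin 3. The core factors Arntl and Clock differed by 0.06 and -0.02, Nr1d1 by 0.21 and Nfil3, which opposes Dbp, by 0.07. The time of day of sampling is not given in the sources used here. Of 14 glucocorticoid response genes 9 were lower, and Zbtb16 had 9.95, 9.91, 9.7 and 9.64 in pitavastatin hearts, against 10.33, 9.98, 10.51 and 11.12 in rosuvastatin hearts. Its difference was -0.69 (SE 0.34) and did not pass, and the glucocorticoid-induced Fkbp5 differed by 0.05.

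Genes of the connective tissue leaned lower in pitavastatin hearts. Of 31 measured extracellular matrix genes 19 were lower and 12 higher, with a median of -0.13, and -0.04 both without rosuvastatin 3 and without both dim arrays. Of 15 fibroblast markers 12 were lower, with a median of -0.13, or -0.06 without rosuvastatin 3 and -0.05 without both dim arrays, and their summed signal ran from 55345 to 63770 in pitavastatin hearts and from 57858 to 63830 in rosuvastatin hearts. Their part in the matrix difference was not tested. Col1a1, of type I collagen, differed by -0.29 (SE 0.14), and Bgn, the proteoglycan biglycan, lay lowest at -0.35 (SE 0.16), or -0.16 without rosuvastatin 3. Mmp14, a membrane-bound collagenase, lay highest at 0.55 (SE 0.22). Pdgfra, the receptor that marks fibroblasts, had 10.03, 9.92, 10.05 and 9.7 in pitavastatin hearts, against 10.31, 10.29, 10.64 and 10.31 in rosuvastatin hearts.

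Tagln and Tpm2, contractile genes of smooth muscle, overlapped between the 2 statin groups. Tagln had 9.46, 10.4, 9.11 and 10.06 in pitavastatin hearts, against 9.69, 9.94, 10.09 and 10.08 in rosuvastatin hearts and between 8.57 and 9.28 in controls. Its difference was -0.19 (95% interval -0.73 to 0.35), and that of Tpm2 was -0.37 (SE 0.17, limma adjusted p = 0.42). Mylk, the kinase of the smooth muscle light chain, differed by -0.44 (SE 0.16) without overlap. Of 11 endothelial genes that statins are known to affect 5 were higher and 6 lower: the nitric oxide synthase Nos3 differed by 0.36 (SE 0.17) and the flow-responsive factor Klf2 by -0.14 (SE 0.16).

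Prkaa2, the catalytic subunit of AMP-activated kinase in muscle, differed by -0.08 (95% interval -0.23 to 0.07). Angptl4, an inhibitor of lipoprotein lipase, had 8.24, 8.2, 6.45 and 7.71 in pitavastatin hearts, against 6.97, 7.6, 6.85 and 7.97 in rosuvastatin hearts, a difference of 0.30 (SE 0.43) that its spread exceeds and that was -0.14 without the dim rosuvastatin arrays. Wdr26, a subunit of the CTLH ubiquitin ligase, had 11.6, 11.44, 11.32 and 11.28 in pitavastatin hearts, against 11.86, 11.84, 11.75 and 11.78 in rosuvastatin hearts. Again no values overlap, at a difference of -0.40 (SE 0.09, limma adjusted p = 0.195), and -0.40 also without the dim rosuvastatin arrays, but the other 4 tested Wdr26 probe sets, all dimmer, differed by between -0.23 and 0.11. Of the 11 measured CTLH genes 8 were lower, with a median of -0.10, or -0.05 without the dim rosuvastatin arrays, while the substrate receptor Gid4 differed by -0.02. Becn1, which starts autophagosome formation, differed by -0.43 (SE 0.11, limma adjusted p = 0.227) in its brightest probe set without overlap, and by -0.18 in the other.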

How the data were processed

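The authors deposited a MAS5 signal intensity per probe set, as the submitters' processing notes name it, from Affymetrix Mouse Genome arrays hybridised with cDNA amplified from 100 ng of left ventricular RNA, per the labels' protocols. The trimmed mean of every array was 500, and no version or detection call was used. The 64 control probe sets were left out, 16 was added before log2, and the brighter 50% by mean over 20 arrays were kept (signal above 81.8). Limma 3.58.1 in R 4.3.3 fitted 1 mean per group over all 20 arrays with a trend in the prior variance. Probe sets with 1 gene symbol numbered 34945, several 932 and none 9160, and only the first were named. The arrays were taken by their titles, but this comparison and the 48 gene lists were chosen with earlier results of these data known. P values measure the spread between mice.

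Genes were named as probe sets that passed without overlap, up to 8 farthest per direction among the 50 smallest p, list members by place and extreme (the first 2 measured, the highest and the lowest), and 12 set genes. The procedure was tested on simulated data that held no dim arrays and no trend with brightness, so it was not tested under these. Alternatives covered scaling, pseudocount, filter, prior, array weights, median covariate, replicate block, samples and omissions. Same-numbered pitavastatin and rosuvastatin arrays had deviations that correlated above 0.1 in 3 of 4 pairs and at -0.08 in the other, and since not every pair passed 0.1 and no label ties the numbers to a shared origin, they were not taken as pairs. Some genes and gene lists are not reported here.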

Additional observations from a re-analysis of the deposited data

Results flagged for a closer look

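Among 362 groups of 4 log2 signals or array measures of the named genes, 13 held 1 value set apart from the other 3 by Dixon's test at 95%, and chance alone flags about 1 in 20 groups. Myl4, the atrial light chain, was apart at 11.73 in pitavastatin 2 (others 8.74 to 9.21) and at 11.58 in rosuvastatin 3 (others 8.9 to 9.2). In pitavastatin hearts, heart 2 was also apart in the autophagy gene Atg7 at 8.33 (others 8.02 to 8.07) and in the proteasome subunit Psmd1 at 11.9 (others 11.75 to 11.77), and heart 4 in the adiponectin receptor Adipor2 at 10.3 (others 10.68 to 10.75).

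Rosuvastatin 3, the dimmest array, was high in Pdgfra at 10.64 (others 10.29 to 10.31), in the proteasome subunit Psma2 at 12.39 (others 11.98 to 12.05), in the lipid droplet protein Cidea at 9.91 (others 9.07 to 9.17) and in the macrophage receptor Adgre1 at 8.89 (others 8.47 to 8.52). It was low in the potassium channel Kcnj2 at 5.77 (others 6.72 to 6.91) and in the B cell marker Ms4a1 at 5.54 (others 6.83 to 7.02). Rosuvastatin 2 was apart in Tra2a at 9.94 (others 10.36 to 10.39), and rosuvastatin 4 in the cardiac factor Tbx5 at 9.2 (others 8.61 to 8.7).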

How the results depend on the processing

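The count of 1 called probe set stayed at 1 under quantile and cyclic loess normalization, pseudocounts of 1 and 64 and the brightest 30% of probe sets. It was 0 after centring, with no filter, with no trend in the prior variance, with the median signal as a covariate, without the dim rosuvastatin arrays, in a fit of only the 8 arrays, with 1 probe set per gene, and, chosen after seeing the data, without pitavastatin 2 and rosuvastatin 3. It was 188 with array weights (19 higher, 169 lower) and 17 with the replicate block (all lower), under which 5 of 8 arrays correlated best with their own number. Leaving out single arrays gave 0 to 10 calls: 10 without control 1, 7 without atorvastatin 2, 2 without pravastatin 1 or rosuvastatin 2, 1 without control 2, and 0 in the other 15. Med1 passed in 12 of 35 settings, 1 of which did not test its called probe set, with differences of -1.22 to -0.72 wherever it was tested and adjusted p of 0.000443 to 0.992. Centring gave 773 higher and 2491 lower at an unadjusted p under 0.05, no filter 3004 and 1403, the brightest 30% 523 and 1211, the covariate 1738 and 1136, no trend 1249 and 1218, the fit without the dim arrays 569 and 499, that of only the 8 arrays 1503 and 1516, that without pitavastatin 2 and rosuvastatin 3 541 and 801, and 1 probe set per gene 504 and 823. Over omissions, the difference in log2 median signal was 0.19 to 0.54, that in the beta-actin ratio -0.25 to -0.07, that in the Gapdh ratio -0.03 to 0.07 (-0.0310 to 0.0690, below 0 at -0.03 without pitavastatin 2, -0.0101 without rosuvastatin 1 and -0.0310 without rosuvastatin 3), and that in 18S signal -0.55 to -0.27 (-0.55 without rosuvastatin 4, exact permutation p = 0.0286, the smallest it can give). The causes were not tested. Among named genes, 229 of 6156 values changed sign. Signal over background limits dim probe sets.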

Other observations

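Erythroid, iron and skeletal muscle genes were not described above. Alas2, the erythroid form of the first enzyme of heme synthesis, differed by 0.71 (SE 0.28, limma adjusted p = 0.412), with overlapping groups, and was the 1 tested gene of the 8 listed erythroid markers. The summed signal of the 4 erythroid markers with a probe set ran from 275.9 to 377 in pitavastatin hearts and from 160.4 to 380.7 in rosuvastatin hearts. Tfrc, the transferrin receptor, differed by 0.66 with an SE of 0.63. The creatine kinase gene Ckm had 12.43, 12.58, 12.53 and 12.5 in pitavastatin hearts, against 12.09, 12.27, 12.36 and 12.12 in rosuvastatin hearts, a difference of 0.30 (SE 0.12, limma adjusted p = 0.415) that was 0.32 without the dim rosuvastatin arrays. The summed signal of the 13 skeletal muscle markers, 3 of them bright enough to be tested, ran from 6328 to 6946 in pitavastatin hearts and from 5164 to 6212 in rosuvastatin hearts, which do not overlap, while control hearts spanned 4586 to 7438. Ckm, which is also on the cardiomyocyte list, supplied 5514 to 6087 of that sum in pitavastatin hearts and 4351 to 5248 in rosuvastatin hearts, and the other tested skeletal markers, Tnni2 and Tnnt1, differed by -0.21 and -0.11. Tsc1, an inhibitor of mTOR, differed by -0.52 (SE 0.22).

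The other cell type lists are given as counts and medians. Of 16 endothelial markers 9 were higher and 7 lower, with a median difference of 0.03, and of 14 smooth muscle and pericyte markers 4 were higher and 10 lower, with a median of -0.10 that was -0.19 without the dim rosuvastatin arrays. Fewer genes were bright enough on the remaining lists: 2 lymphocyte markers had a median of 0.39, 2 neutrophil markers 0.32, 4 adipocyte markers 0.07, 4 epicardial markers -0.11 and 5 Schwann cell and nerve markers -0.14. Of 9 fetal and stress genes of heart muscle 2 were higher and 7 lower, with a median of -0.03.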
